A study of Mus musculus with 6 samples.

Results

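RPL3 is a core protein of the large ribosomal subunit and the substrate of METTL18, a methyltransferase that modifies 1 of its histidines. Ribosome footprints on the Rpl3 mRNA and on 9 other mRNAs of the cytosolic ribosome were compared between wild-type (WT) cells and cells without Mettl18. The 10 members were given as a list of Ensembl transcript identifiers, and a row was kept where its deposited length value equalled the length of the named protein minus 9 residues. All 10 rows met this, out of 142314 rows in each file. The files do not pair identifiers with names, so the gene names come from that list. The length agreement is a weak check by itself, since 64 rows carry the length value of Rpl3 (394) and 196 carry that of Rplp0 and Rack1 (308). The rule that kept the rows used no measured count, but the members were listed with earlier results of these data known.

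The cells were 266-6, a mouse pancreatic acinar line derived from an acinar tumour. Footprints came from 3 WT and 3 Mettl18 KO libraries. Cells of both genotypes had been transfected with a plasmid for Reg1-FLAG and cultured for 48 h, so neither group is untransfected, and lysates contained 100 μg/ml cycloheximide, which holds ribosomes on mRNA. The labels do not say whether the KO cells are 1 clone, nor whether each library was a culture of its own, so a p-value here sets a difference against a spread that may be technical. Mettl18 itself and markers of acinar or other cells were not analysed here, and neither genotype nor cell type was checked against a gene. Without matched RNA-seq, a footprint level combines the amount of an mRNA with how many ribosomes sit on it, and in bulk samples fewer cells and less RNA per cell cannot be told apart.

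As background, a ribosome holds a single copy of each of these proteins, and mammalian cells make them in step with one another. Their mRNAs typically start with a C followed by an unbroken run of pyrimidines, the 5' terminal oligopyrimidine (TOP) motif, through which growth signals (mTOR, acting through LARP1) control the translation of the whole class. RPL3 lies close to the peptidyl transferase centre, and the METTL18 mark on it has been linked in other cells to the speed of elongation at tyrosine codons. Coding and protein sequences were not used here, so codon content is not given.

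RefSeq start-site sequences (GRCm38.p6) matched 8 of the 10 members by symbol and are shown because the pyrimidine start is the sequence feature that the class is known for. The start used is that of the sequence table, which is the start of the gene for 6 of the 8 and lies 20 bases downstream of it for Rpl5 and 122 for Rpl7a. A C at this start followed by at least 4 bases that are each C or T, read on the sense strand only, was present in 1 of the 8 (Rack1) and in 2.51% of 32851 start regions. At the start of the gene it was present in 2 of the 8, Rack1 and Rpl5, a count for which no share over all start regions was computed. A C followed by at least 5 such bases and lying within 5 bases of the start was present in 2 (Rack1 and Rpl7a) and in 10.2% of start regions. The longest C-led pyrimidine run within 50 bases on either side of the start had 9 or more bases in 4 of the 8 members and in 20.1% of start regions; the bound of 9 was chosen after the runs were seen. These 4 are printed 5' to 3' with the run in capitals. They are runs of letters near an annotated start, which need not be the cap site.
Rpl7a, chr2:26910790-26910818, plus strand: caattCCCTCTTCTTTCTTTCTCCagcag
Rack1, chr11:48800349-48800374, plus strand: ggccgCTCTTTCTTTTTCTCCacagg
Rpl4, chr9:64173408-64173432, plus strand: cgtggCCTTCTCCTCTCCCCgtcat
Rpl5, chr5:107900503-107900521, plus strand: agccaCTCTTTCTCacgtc
The run of Rpl7a began 12 bases before the start in the table, that of Rack1 6 bases before and that of Rpl5 20 bases before, which is the start of the Rpl5 gene, while that of Rpl4 began 26 bases after it.

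Levels below are in CPM, the count of a transcript relative to all counts of its library, scaled by TMM, a factor that evens out differences in composition. With rows of identical counts kept once, the libraries held 3792964 to 5131937 counts in WT and 5379044 to 7106203 in KO. KO replicates 2 and 3 were the closest pair of libraries. The chi-square per degree of freedom between them was 1.34 over all tested rows, against 4.75 to 11.9 for other pairs of the same genotype, and 1.04 over the 10 members, where 1 is counting noise. They were kept as separate libraries because they differed beyond counting noise over all rows, which does not show that they were separate cultures. Results with the pair summed as 1 sample are given below.

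All 10 members had a higher mean footprint level in Mettl18 KO than in WT cells, by 1.19- to 1.60-fold, and 0 passed edgeR's quasi-likelihood test at an adjusted p of 0.05. At an unadjusted p under 0.05, 2 of the 10 passed, Rpl3 and Rpsa, as did 12.7% of all tested transcripts in the direction of KO, and DESeq2's Wald test called those same 2 (4.13% of all transcripts were called higher in KO by it). In limma-voom, which called 5.23% higher, 0 of the 10 passed. For comparison, 5.14% of the 30588 transcripts tested were called higher in KO and 4.30% lower, or 1571 and 1314 transcripts. Summing KO replicates 2 and 3 left 436 higher (1.38%) and 356 lower. Leaving out KO replicate 2 gave 368 and 302, and leaving out KO replicate 3 gave 410 and 312. The higher ones made up 54.5% of the calls with TMM and 44.4% with library sizes alone, when 1409 were higher (4.61%) and 1762 lower. The median log2 fold change of the members was 0.35, against -0.06 over all tested transcripts and 0.16 over the 1877 transcripts at 100 CPM or more. Of those 1877, 10.1% were called higher in KO. A log2 fold change above 0 was found for 45.4% of all tested transcripts, a share that was not computed for those at 100 CPM or more. The members' 10 of 10 is not 10 separate observations, because their levels largely followed the same libraries up and down, as given below.

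**Figure D1:**
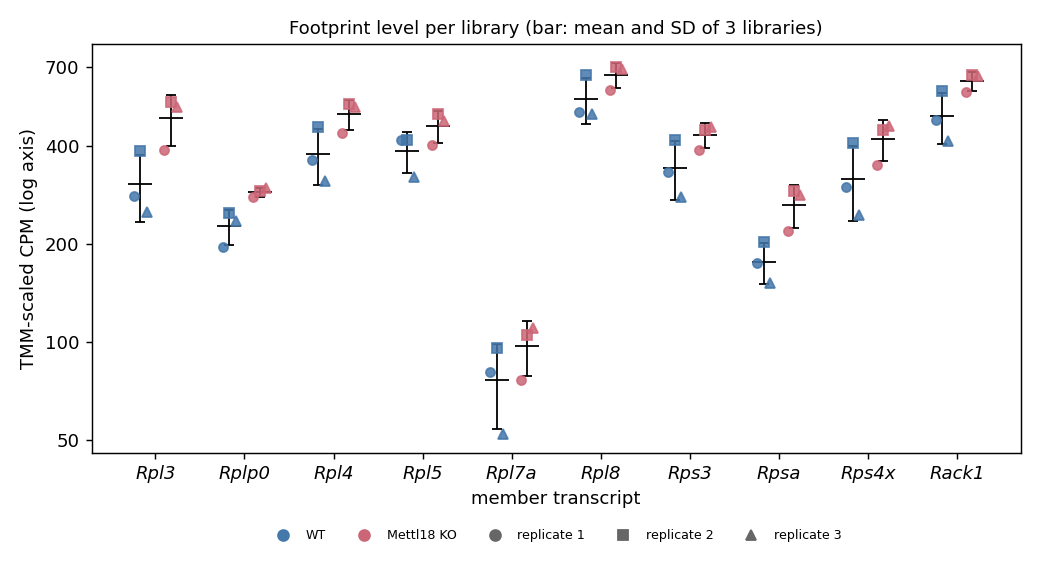
Footprint level of each member in each library, in TMM-scaled CPM on a log axis, with WT in blue and Mettl18 KO in red, marker shape giving the replicate number and the bar the mean and SD of 3 libraries. On this scale only Rpl3, Rplp0 and Rpsa have every KO library above every WT library, Rpl3 by little. WT replicate 2 is the highest WT library for all 10 members and KO replicate 1 the lowest KO library for all 10.

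Rpl3 (ENSMUST00000081650.14; gene at chr15:80077781-80083406, GRCm38.p6) had the largest change of the 10. Its level was 280.2, 385.0 and 249.9 CPM in WT replicates 1 to 3 and 387.4, 547.0 and 524.9 CPM in KO replicates 1 to 3. Every KO library lay above every WT library, but KO replicate 1, the lowest in KO, exceeded WT replicate 2, the highest in WT, by little. The means were 305.1 ± 70.9 CPM in WT and 486.5 ± 86.5 CPM in KO (n = 3 per genotype, SD). The log2 fold change was 0.67 ± 0.22 (SE), or 1.60-fold, with a 95% interval of 0.19 to 1.16 before adjustment and an edgeR adjusted p of 0.0839. This change was higher than that of 92.3% of all tested transcripts, whose median change was below that of transcripts at 100 CPM or more.

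The level of Rpl3 rested on 1246 to 3691 counts per library, for which counting error is 1.65% to 2.83%. The libraries of a genotype varied far more, with a coefficient of variation of 23.2% in WT and 17.8% in KO. With KO replicates 2 and 3 summed, the log2 fold change was 0.61 (edgeR adjusted p = 0.289). It was 0.88 without WT replicate 2 (edgeR adjusted p = 0.0201; 6.98% of all transcripts were then called higher in KO) and 0.70 by DESeq2's Wald test (adjusted p = 0.029), the only alternatives in which Rpl3 passed the threshold. Over the 17 alternatives the adjusted p ran from 0.0201 to 0.318 and the change from 0.56 to 0.88. It stayed the largest of the 10 members in each of them.

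Shorter rows next to a member in the files were read as well. They were taken where they lay within 10 lines of a member, had no higher length value and held at least 20% of its count in every library, a rule set after the rows were seen; they may be isoforms, but the files do not say so. The 3 such rows beside Rpl3 have length values of 124, 171 and 178 and held 24.1% to 45.1% of its count. In a fit with every row tested on its own, their log2 fold changes were 0.50 ± 0.24, 0.72 ± 0.19 and 0.73 ± 0.21 (SE), beside 0.68 for Rpl3 in that fit. The row of length value 171 had an edgeR adjusted p of 0.0397, and the others had 0.228 and 0.0538; 5.31% of rows were called higher in KO there. If these rows share footprints with the Rpl3 row, they are not independent of it. The rows beside other members in that fit were those of Rplp0, at 0.30 ± 0.17 and 0.48 ± 0.14, Rps3, at 0.28 ± 0.17 and 0.38 ± 0.17, and Rpl5, at 0.08 ± 0.15 (SE), with edgeR adjusted p of 0.0642 to 0.762, besides 1 of Rpsa.

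Rpsa (ENSMUST00000035105.6; chr9:120127766-120132369), a small subunit protein also known as the laminin receptor precursor, had the next largest change. Its level was 174.5, 202.1 and 152.0 CPM in WT and 218.5, 290.9 and 282.0 CPM in KO, again with no overlap between genotypes. The means were 176.2 ± 25.1 and 263.8 ± 39.5 CPM (n = 3 per genotype, SD), and the log2 fold change was 0.58 ± 0.18 (SE), with a 95% interval of 0.18 to 0.99 (edgeR adjusted p = 0.0731). It passed the threshold in 4 of 17 alternatives (adjusted p 0.0337 to 0.31): with library sizes alone, by DESeq2's Wald test, without WT replicate 2 and without KO replicate 1 (3.68% of all transcripts called higher in KO). With KO replicates 2 and 3 summed it was 0.53 (edgeR adjusted p = 0.277). A neighbouring row of length value 124, which held 32.5% to 37.1% of the count of Rpsa, changed by 0.66 ± 0.18 (SE; edgeR adjusted p = 0.0467 with every row tested).

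Among the other large subunit members, Rplp0 (ENSMUST00000086519.11; chr5:115559467-115563729), the base of the stalk that recruits elongation factors, differed in its pattern over libraries. Its level was 195.2, 249.4 and 235.4 CPM in WT and 278.9, 289.9 and 297.0 CPM in KO. The genotypes did not overlap and the KO libraries were close together, yet the log2 fold change was 0.35 ± 0.16 (SE; 95% interval -0.01 to 0.70; edgeR adjusted p = 0.199). WT replicate 3 was the lowest WT library for the 9 other members and for Rplp0 it was not. Every KO library lay above every WT library for 3 of the 10 members, Rpl3, Rplp0 and Rpsa, as for 15.5% of all tested transcripts and 26.5% of those at 100 CPM or more. This count was made with TMM scaling only and turns on small gaps between KO replicate 1 and WT replicate 2. For Rpl3 these libraries stood at 387.4 and 385.0 CPM, and for Rack1, which overlapped, at 584.5 and 587.4 CPM.

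Rpl4 (ENSMUST00000034966.8; chr9:64173387-64178562), whose long loop lines the exit tunnel, had 361.4, 456.5 and 312.6 CPM in WT and 438.1, 535.7 and 527.3 CPM in KO. WT replicate 2 lay above KO replicate 1, and the log2 fold change was 0.41 ± 0.19 (SE; edgeR adjusted p = 0.213). Rpl5 (ENSMUST00000082223.12; chr5:107900508-107909005), a partner of 5S rRNA that also binds MDM2, had 384.9 ± 55.4 CPM in WT and 459.8 ± 50.3 CPM in KO (n = 3 per genotype, SD), a log2 change of 0.26 ± 0.18 (SE; edgeR adjusted p = 0.402). In Rpl5, 2 WT libraries exceeded KO replicate 1. Rpl8 (ENSMUST00000004072.9; chr15:76904071-76906318), a protein near the peptidyl transferase centre, had the highest level and the smallest change of the 10, at 555.7 ± 88.9 CPM in WT and 660.3 ± 58.2 CPM in KO, a log2 change of 0.25 ± 0.19 (SE; 95% interval -0.17 to 0.66; edgeR adjusted p = 0.428). Rpl7a (ENSMUST00000102898.4; chr2:26910685-26913312) had the lowest level, 76.5 ± 22.3 CPM in WT and 97.4 ± 18.4 CPM in KO, on 287 to 711 counts per library. Its log2 fold change was 0.35 ± 0.23 (SE; edgeR adjusted p = 0.377), and WT replicates 1 and 2 exceeded KO replicate 1.

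Of the small subunit members, Rps3 (ENSMUST00000032998.12; chr7:99477896-99483709), a protein at the mRNA entry site, had 332.6, 417.6 and 279.4 CPM in WT and 389.0, 448.6 and 457.6 CPM in KO. Its log2 fold change was 0.33 ± 0.19 (SE; edgeR adjusted p = 0.303). Rps4x (ENSMUST00000033683.7; chrX:102184941-102189391), the X-linked copy of RPS4, had 317.1 ± 82.5 CPM in WT and 418.9 ± 60.7 CPM in KO (n = 3 per genotype, SD), a log2 change of 0.40 ± 0.22 (SE; edgeR adjusted p = 0.275). Rack1 (ENSMUST00000020640.7; chr11:48800360-48806241), a scaffold on the head of the small subunit that takes part in signalling and in quality control of stalled ribosomes, had 479.9, 587.4 and 414.3 CPM in WT and 584.5, 659.5 and 653.9 CPM in KO. Its log2 fold change was 0.36 ± 0.19 (SE; edgeR adjusted p = 0.26). In each of these 3, WT replicate 2 was the only WT library above a KO library, and that library was KO replicate 1.

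**Figure D2:**
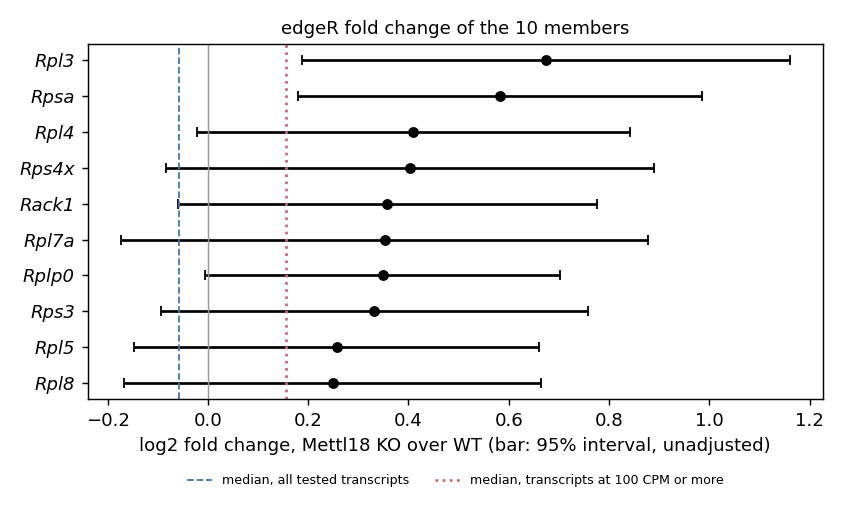
Log2 fold change of each member, Mettl18 KO over WT, from edgeR, with its 95% interval before adjustment; the dashed line is the median of all tested transcripts (-0.06) and the dotted line that of transcripts at 100 CPM or more (0.16). The intervals of Rpl3 (0.19 to 1.16) and Rpsa (0.18 to 0.99) lie above both lines, and the other 8 include 0.

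Leaving out 1 WT library moved some of these changes by more than 1.5 times. Without WT replicate 3 the log2 fold change was 0.14 for Rpl5, 0.14 for Rpl7a, 0.21 for Rps3 and 0.25 for Rps4x, and without WT replicate 2 it was 0.56 for Rpl7a, 0.40 for Rpl8, 0.50 for Rps3 and 0.63 for Rps4x. None of these 8 values passed the threshold (edgeR adjusted p 0.0524 to 0.7). With KO replicates 2 and 3 summed, the 8 members other than Rpl3 and Rpsa lay between 0.22 and 0.37 (edgeR adjusted p 0.45 to 0.7).

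Each of the 8 intervals that included 0 also included a rise of 1.5-fold, so the test does not show these members to be alike in the 2 genotypes. The summed level of the 10 members was 3128, 3878 and 2762 CPM in WT and 3719, 4522 and 4479 CPM in KO. The means were 3256 ± 569 and 4240 ± 452 CPM (n = 3 per genotype, SD), a ratio of 1.30, and WT replicate 2 lay above KO replicate 1. The difference of 984 CPM was 872 CPM with KO replicates 2 and 3 summed. As a share of unscaled counts the members took 0.296% to 0.368% in WT and 0.373% to 0.429% in KO.

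Most members went up and down together from library to library within a genotype. Relative to its own mean over the 6 libraries, 0 of 10 members was above in WT replicates 1 and 3, 7 were above in WT replicate 2, 6 in KO replicate 1 and 10 in KO replicates 2 and 3. The median deviation was -0.25, 0.08 and -0.46 log2 in WT replicates 1 to 3 and 0.03, 0.29 and 0.28 log2 in KO replicates 1 to 3. Rplp0 stood at -0.39 in WT replicate 1 and -0.12 in WT replicate 3, in the opposite order to the median. These deviations include the difference between genotypes. The balance of footprints between long and short transcripts also varied over these libraries. The difference between transcripts whose length value was 1000 or more and those under 200 (medians of log2 deviations, transcripts of at least 5 CPM) was -0.06, -0.29 and 0.46 in WT and 0.17, -0.17 and -0.14 in KO. Within each genotype, the library with the highest such difference had the lowest summed level of the members and the library with the lowest difference had the highest. The part of this trend in the libraries' spread was not tested. With each library's trend over length values removed, the log2 fold change of Rpl3 was 0.70 (edgeR adjusted p = 0.0697) and the median of the members 0.38.

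Setting each member against the other 9 in the same library removes the scaling between libraries and any movement that all members share to the same extent. Members did not all move to the same extent. Between KO replicates 1 and 2, Rpl3 went from 0.03 to 0.53 log2 about its mean, and the median of the members from 0.03 to 0.29. Between WT replicates 1 and 3, Rpl3 went from -0.44 to -0.60 and the median from -0.25 to -0.46. How much shared movement stays in the relative values was not tested. Rpl3 was 0.01, 0.18 and 0.06 log2 above the mean of the others in WT and 0.26, 0.48 and 0.42 above it in KO. The genotypes did not overlap, and the difference between the means was 0.30 log2, with an SD of 0.09 in WT and 0.11 in KO (n = 3 each). No test was made of it, because the members were chosen with earlier results known. It ran from 0.26 to 0.37 with each library left out, and was 0.33 against the median of the others, 0.30 without Rack1 and 0.28 with KO replicates 2 and 3 summed.

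Rpsa and Rpl8 also kept the genotypes apart on this relative scale, Rpl8 by little. The share of all transcripts that would do so on this scale was not computed. The separation of these members and of Rpl3 therefore has no background to be read against. Relative to the mean of the others, Rpsa stood at -0.75, -0.85 and -0.74 log2 in WT and at -0.66, -0.53 and -0.58 in KO, a difference of 0.19. Rpl8 moved the other way, from 0.96, 1.04 and 1.17 above in WT to 0.94, 0.87 and 0.85 above in KO, a difference of -0.17. A member that gains relative to the others lowers them by construction, so these relative values are not independent of one another. Rpl4 was the steadiest member, at 0.42 to 0.46 log2 above the others in all 6 libraries. Rplp0 was the least steady in WT, at -0.57, -0.52 and -0.04, where WT replicate 3 stood apart.

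**Figure D3:**
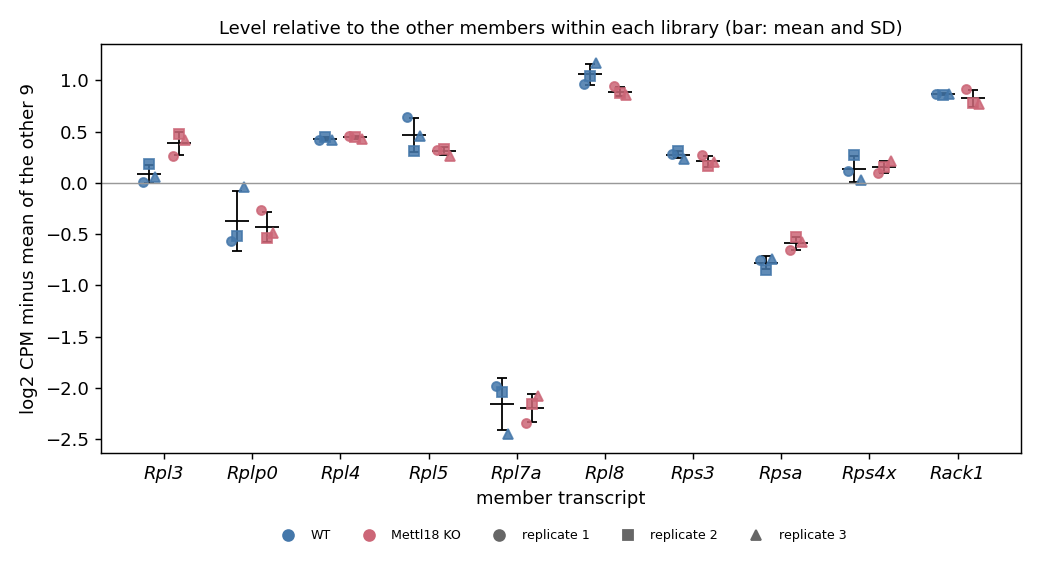
Log2 CPM of each member minus the mean log2 CPM of the other 9 members in the same library, with WT in blue and Mettl18 KO in red, marker shape giving the replicate number and the bar the mean and SD of 3 libraries. Rpl3 and Rpsa are higher in every KO library than in any WT library, Rpl8 is lower, and Rpl4 hardly moves.

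The large subunit members were also set against the small subunit members within each library. The mean log2 level of the 6 large subunit members minus that of the 4 small subunit members was -0.20, -0.22 and -0.15 in WT and -0.23, -0.21 and -0.23 in KO. The difference between genotypes was -0.04, with an SD of 0.04 in WT and 0.01 in KO, and the genotypes overlapped, since KO replicate 2 lay above WT replicate 2. It was -0.02 without WT replicate 3. With medians of the members in place of means, the values were 0.01, -0.04 and 0.10 in WT and 0.10, 0.21 and 0.12 in KO, a difference of 0.12. The genotypes then stood apart by very little, at 0.096 in WT replicate 3 and 0.101 in KO replicate 1. The direction of this comparison thus turned on how the members were averaged.

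Per length, the footprint level differed several-fold among mRNAs whose proteins enter the ribosome in equal number. Density is given as CPM per 100 residues of the protein, with the protein's length taken as the deposited value plus 9. Rpl8 had the highest, 216.2 ± 34.6 in WT and 256.9 ± 22.7 in KO, and Rpl7a the lowest, 28.7 ± 8.39 in WT and 36.6 ± 6.91 in KO (n = 3 per genotype, SD). The ratio of the highest to the lowest was 7.52 in WT and 7.02 in KO. How reads that match several places were counted is not given in the sources used here. Genes of this family have many processed copies in the genome, so differences in density between members are uncertain.

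The order in WT was Rpl8, Rack1, Rps3, Rpl5, Rps4x, Rpl4, Rpl3, Rplp0, Rpsa and Rpl7a. Neighbours in this order had separate ranges over the 3 libraries only at its ends, Rpl8 above Rack1 and Rpsa above Rpl7a. In KO, Rps4x stood before Rpl5 and Rpl3 before Rpl4, and neither of these pairs had separate ranges in KO, where Rpl5 above Rpl3 and Rpl4 above Rplp0 did, beside the ends. Rpl3 had a density of 75.7 ± 17.6 in WT and 120.7 ± 21.5 in KO, and Rack1 155.8 ± 27.6 and 199.6 ± 13.2 (n = 3 per genotype, SD). Rack1 was thus 2.06 times as dense as Rpl3 in WT and 1.65 times in KO. The order was the same in each genotype when the deposited length value was the denominator.

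**Figure D4:**
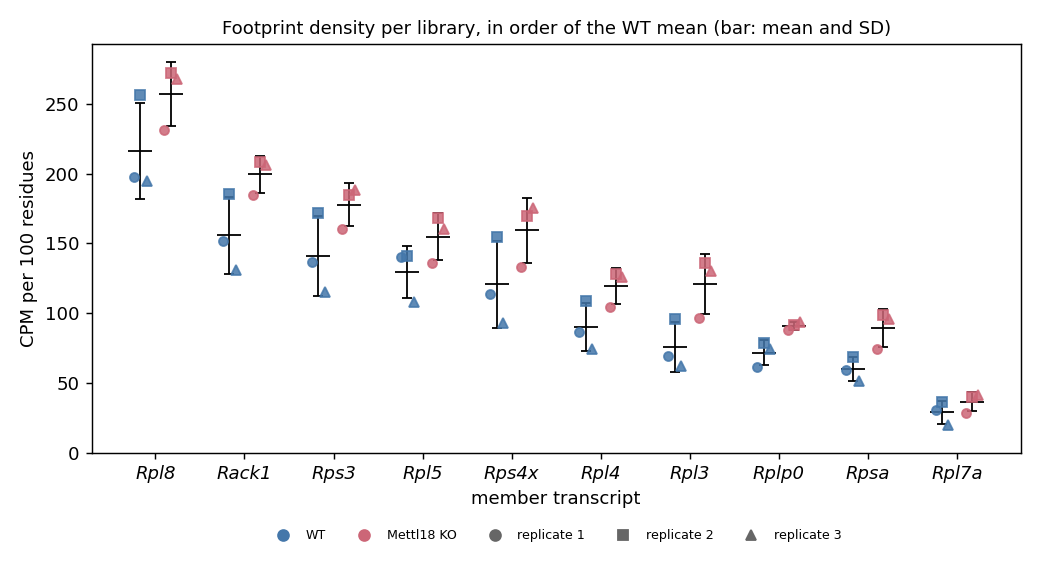
Footprint density of each member in each library, in CPM per 100 residues of the protein, in the order of the WT means, with WT in blue, Mettl18 KO in red, marker shape giving the replicate number and the bar the mean and SD of 3 libraries. Densities run from 28.7 (Rpl7a) to 216.2 (Rpl8) in the WT means, and most neighbours in the order overlap.

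Over the 6 libraries, the members whose log2 levels were most like that of Rpl3 were Rpsa (Pearson's r = 0.99), Rpl4 (r = 0.99) and Rack1 (r = 0.97). The r was 0.96 for Rpl8, Rps4x and Rps3, 0.89 for Rpl5, 0.87 for Rpl7a and 0.84 for Rplp0. The r exceeded 0.9 for 6 of the 9 other members and for 8.83% of 23400 transcripts of at least 5 CPM. The points are the same 6 libraries for every pair and share their scaling and the difference between genotypes. With each genotype's mean removed, the r with Rpl3 was 0.98 for Rpsa and Rpl4, 0.97 for Rps4x and Rpl8, 0.94 for Rps3 and 0.93 for Rack1. It was 0.90 for Rpl7a, 0.82 for Rpl5 and 0.49 for Rplp0. The share of all transcripts with so high an r was not computed for these values.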

How the data were processed

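Ribosome footprints of 6 libraries (3 WT, 3 Mettl18 KO) were analysed. The authors deposited raw counts per Ensembl transcript, 1 file per library, beside a length value. The build mm10 and the tools STAR 2.7.0a, UMI-tools 1.1.2, cutadapt 3.7 and CASAVA 1.8 were used, per the submitters' processing notes; not given in the sources used here are the counting program, the strand setting and the treatment of multiply matching reads. RefSeq tables (GRCm38.p6) matched 0 identifiers directly and supplied gene positions by symbol.

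Of 54710 rows with a count, those with identical counts in all libraries were merged, leaving 39355. Genotype was the only term of a quasi-likelihood fit in edgeR 4.0.16 (under R 4.3.3) after filterByExpr and TMM, with Benjamini-Hochberg adjustment over all 30588 rows tested. Standard errors are the fold change divided by the root of its F statistic. The 95% intervals were computed from these standard errors and a t distribution with the degrees of freedom of the test. They are approximate and include the spread between libraries. The alternatives were limma-voom (limma 3.58.1), DESeq2 1.42.0, other scalings and filters, unmerged rows, removal of the length trend, KO replicates 2 and 3 summed, a replicate block and each library left out. All 10 members were named by rule, and the members, lists and alternatives were chosen with earlier results of these data known. Other ribosomal proteins and marker lists were not analysed here.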

Additional observations from a re-analysis of the deposited data

How the results depend on the processing

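All 10 members had a log2 fold change above 0 in the main setting and in all 17 alternatives. The number called higher in KO was 0 of 10, and 1 with library sizes alone, 2 by DESeq2's Wald test (Rpl3 and Rpsa) and 0 to 2 with each library left out; it was highest without WT replicate 2, and 1 (Rpsa) without KO replicate 1. Rpl3 changed by 0.67; leaving out each library gave 0.56 to 0.88, where it passed the threshold only without WT replicate 2; it was 0.70 by DESeq2's Wald test. The large against small subunit difference of -0.04 was 0.12 with medians. Over all transcripts, 436 rose and 356 fell with KO replicates 2 and 3 summed, against 1571 and 1314. With each library left out, 368 to 2223 rose and 302 to 1718 fell; without KO replicate 2 it was 368 and 302, without KO replicate 3 it was 410 and 312, without WT replicate 1 it was 714 and 689 and without KO replicate 1 it was 1154 and 867. The cause was not tested. The main fit did not use the replicate numbers to pair the samples. Deviations of same-numbered libraries from their genotype means correlated at -0.04, 0.40 and -0.38, and those of WT replicate 3 and KO replicate 1 at 0.62. The deviations within a genotype are tied to one another, so these values cannot show whether samples were paired. With the replicate block 1168 transcripts rose and 944 fell, 0 members were called, and the change of Rpl3 was 0.68 (edgeR adjusted p = 0.0836). The start-site run found in 1 member at the start was found in 2 within 5 bases. Counting error was 1.46% to 5.90% of the level of a member in a library. The within-library values with KO replicates 2 and 3 summed were added after seeing the data.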
